A study of Sus scrofa with 4 samples.

Results

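The 39 DNA replication and G1/S genes described here were taken by gene name from a list covering origin licensing, the replication fork, nucleotide supply and the E2F-driven entry into S phase. All 39 had a row among the 29837 named genes of the count table, and all 39 were among the 15980 genes that could be tested. The libraries came from juvenile pigs in which H2B-GFP, a fluorescent histone, was knocked into the first exon of 1 LGR5 allele. Skin of pigs 88R and 95R was separated with dispase, the hair and epidermis were digested with trypsin, and live cells were sorted by GFP. Each pig gave 1 LGR5-high library (labelled LGR5-GFP+) and 1 LGR5-negative library (labelled LGR5-GFP-), so n = 2 in each population. Both populations carried the reporter allele, which came from clonal edited fibroblasts used for nuclear transfer, and whether these pigs were cloned founders or their offspring is not stated. Because the reporter is a histone that is diluted at each division, a cell that has divided several times after losing LGR5 expression can leave the GFP-high gate, and the sorted GFP-low cells were not analysed here.

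Before a cell copies its genome, the origin recognition complex, CDC6 and CDT1 load the MCM helicase onto DNA, a step called licensing. At the start of S phase the helicase is activated by CDC45 and the GINS complex, after which primase, the DNA polymerases, the sliding clamp PCNA and its loader copy the strands, while ribonucleotide reductase and thymidylate enzymes supply nucleotides. Many of these genes are transcribed by E2F factors once cyclin E and its kinase have released them from the retinoblastoma protein. In skin, dividing keratinocytes lie mainly in the basal layer, the outer root sheath and the hair matrix.

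The libraries held between 30696803 and 32463362 counts on named genes, and values are given as CPM, the depth-normalised read count, after TMM scaling, which corrects for differences in library composition. Levels are compared between libraries and not between genes, since CPM is not corrected for gene length. The sort was visible in LGR5, which had 132 and 188 CPM in LGR5-high and 1.26 and 3.61 CPM in LGR5-negative (log2 fold change 6.03), and in SOX9 of the outer root sheath and bulge, with a log2 fold change of 4.41. Markers of other cells moved with the populations. The summed level of 6 suprabasal keratinocyte markers lay between 5056 and 5613 CPM in LGR5-high and reached 54972 to 64022 CPM in LGR5-negative, with 4 of 6 lower, among them KRT10 of differentiated epidermis (log2 fold change -3.44). The 7 Langerhans and myeloid markers summed to between 17.7 and 23.5 CPM in LGR5-high and between 156 and 176 CPM in LGR5-negative, with 4 of 7 lower and 1 higher. The 7 melanocyte markers summed to between 34.5 and 39.2 CPM in LGR5-high, and to 65.2 CPM in LGR5-negative of pig 88R and 241 CPM in that of pig 95R. Of 5 inner root sheath markers 4 were higher in LGR5-high, with sums between 1156 and 1445 CPM against 573 and 619 CPM. Of the outer root sheath and bulge markers 5 of 6 were higher, with sums of 1641 and 1620 CPM against 118 and 146 CPM, and of 4 basal keratinocyte markers 1 was lower. Fibroblast markers were split, with 2 of 7 higher and 4 lower and sums from 736 to 916 CPM in LGR5-high against 342 to 614 CPM. The higher markers were THY1, with 504 and 466 CPM in LGR5-high, and COL1A1, with 142 and 331 CPM there. DCN, LUM, PDGFRA and COL3A1 were lower. Of 5 endothelial markers that could be tested 4 were lower. The 6 with a row summed to at most 7.48 CPM in LGR5-high against 21.0 and 21.4 CPM in LGR5-negative. Of 4 hair matrix and shaft markers 1 was higher and 2 were lower. The T cell markers CD3D, CD3E, CD3G and CD2 had 0 counts in both LGR5-high libraries and at most 4 counts in LGR5-negative, while CD247, the only gene of that list that could be tested, was higher in LGR5-high, with 10.8 and 11.1 CPM against 4.11 and 3.44 CPM (log2 fold change 1.53). The part of these cells in the differences below was not tested.

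Most replication and G1/S genes differed little between the sorted populations. By the quasi-likelihood test of edgeR, adjusted by the Benjamini-Hochberg method over all tested genes with a threshold of 0.05, 11 of the 39 genes (28.2%) were higher in LGR5-high and 1 (2.56%), RRM2, was lower. Among all tested genes 22.7% were higher and 22.0% were lower, so the share of higher genes was near the background and that of lower genes was below it. The higher genes were CDC6, ORC1, POLE, RFC3, MCM5, MCM10, TK1, MCM3, MCM6, MCM7 and POLD1, and of these only CDC6 exceeded a log2 fold change of 1. The median log2 fold change was 0.20 for the 39 genes and 0.015 for all tested genes, and the median without regard to sign was 0.244 for the 39 genes and 0.467 for all. The summed level of the 39 genes was 1376 and 1363 CPM in LGR5-high and 1293 and 1296 CPM in LGR5-negative of pigs 88R and 95R. This sum includes RRM2, with 54.5 and 43.7 CPM in LGR5-high and 116 and 125 CPM in LGR5-negative. In contrast, 29 of the 39 genes had a log2 fold change above 0, beside 8133 of the 15980 tested genes. In sorted bulk samples, fewer cells of a type and less RNA per cell cannot be told apart.

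The lower bound of counting precision was set by CDC6, whose 52 counts in 1 library were the fewest of any of the 39 genes, against a floor of 3 counts. In both pigs 25 genes had a ratio of LGR5-high to LGR5-negative above 1 and 7 had a ratio below 1, while the other 7 had opposite directions in the pigs. The 2 populations did not overlap for 20 genes with the higher values in LGR5-high (51.3%) and for 5 genes with the lower values there (12.8%), against 39.2% and 37.4% of all tested genes. The 95% counting intervals of pigs 88R and 95R overlapped for 36 of the 39 genes, with MCM6, MCM10 and RRM2 as the exceptions. These intervals cover counting error only, because each pig gave 1 library of each population. They treat reads as independent molecules, which amplified reads are not, so they can be too narrow.

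**Figure D1:**
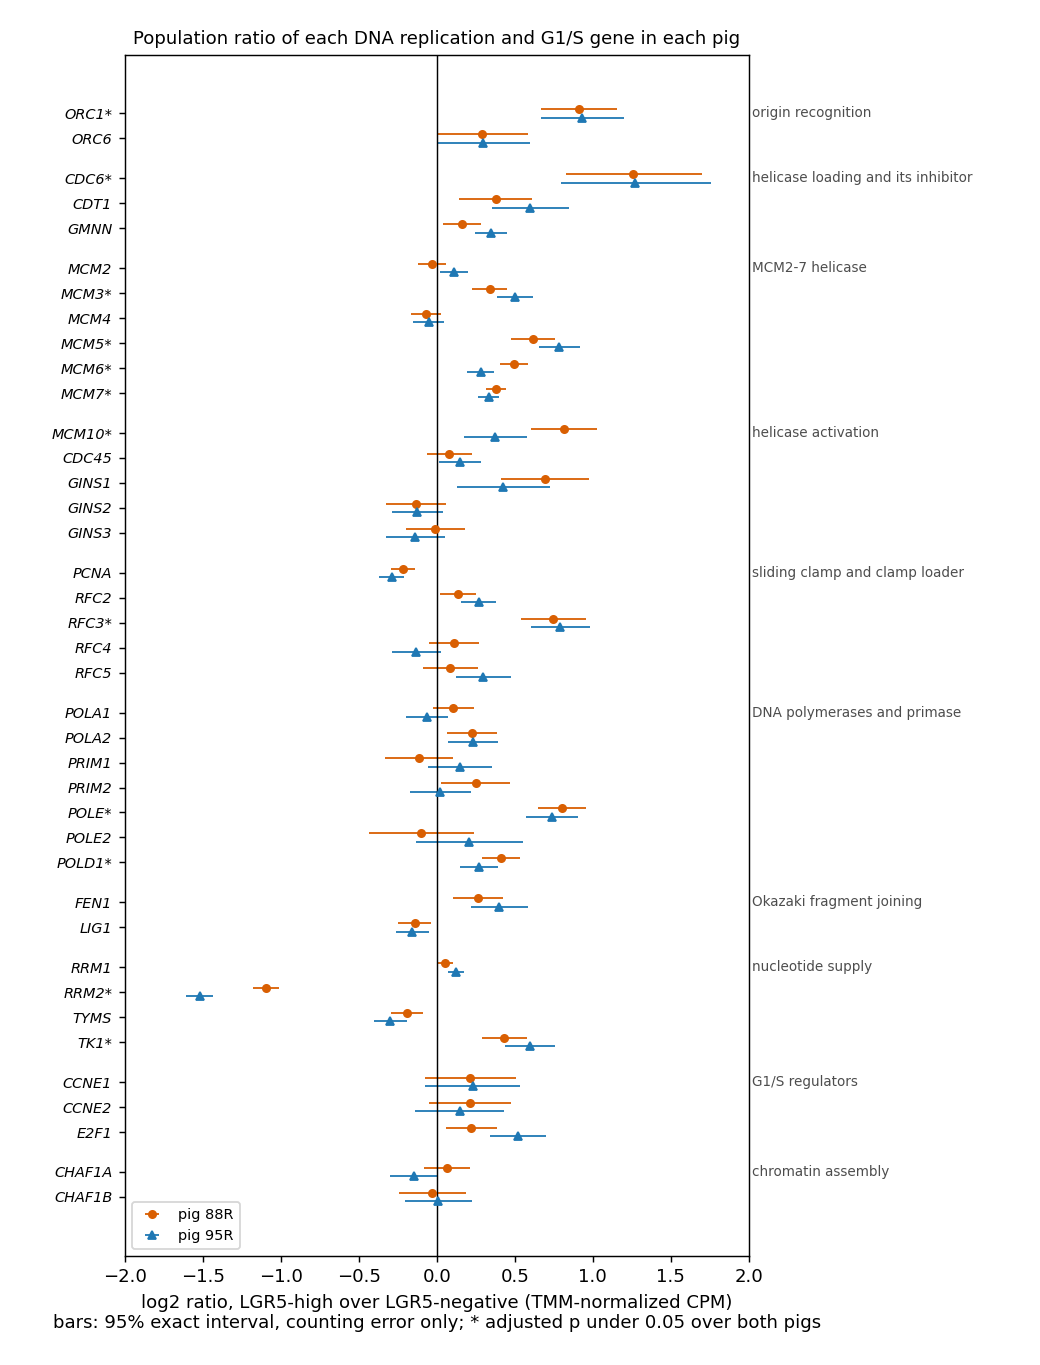
Log2 ratio of LGR5-high to LGR5-negative for each of the 39 genes in pig 88R (circles) and pig 95R (triangles), grouped by role, with bars for the 95% exact interval of counting error. Most points lie within 0.5 of 0, CDC6 and ORC1 lie farthest to the right, and RRM2 lies alone at the left with -1.10 and -1.52.

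The number of higher genes depended on the libraries and on the pairing. Without the LGR5-high library of pig 88R only MCM5 and RFC3 were still called higher, beside 14.2% of all genes in the same fit, and without that of pig 95R the number was 5, beside 13.9%. Without the LGR5-negative library of pig 95R it was 7, beside 19.1%, and without that of pig 88R it was 9, beside 18.3%. MCM5 and RRM2 were the 2 genes called in each of these 4 fits, in which the log2 fold change stayed between 0.57 and 0.83 for MCM5 and between -1.48 and -1.15 for RRM2. In the same 4 fits it lay between 1.09 and 1.42 for CDC6, 0.77 and 1.06 for ORC1, 0.59 and 0.93 for POLE, and 0.64 and 0.88 for RFC3. It lay between 0.46 and 0.72 for MCM10, 0.34 and 0.68 for TK1, 0.34 and 0.49 for MCM3, 0.28 and 0.48 for MCM6, 0.31 and 0.40 for MCM7, and 0.25 and 0.43 for POLD1. Adding the pig to the fit as a replicate block, so that populations are compared within pigs, gave 16 higher genes (41.0%) and 2 lower genes (5.13%), beside 28.5% and 27.2% of all tested genes. The block added CDT1, GMNN, GINS1, E2F1 and FEN1 to the higher genes and PCNA to the lower genes. DESeq2 with the same block called none of these 6 genes, with adjusted p-values from 0.113 for PCNA to 0.236 for FEN1. It called 9 genes higher, without MCM10 and POLD1, and RRM2 lower, beside 18.8% of all tested genes higher. A test of each gene by itself, which does not share the estimate of spread across genes, called POLA2 alone and neither MCM5 nor RRM2. In that test only 3.40% of all tested genes were higher and 3.14% lower.

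Among the origin recognition genes, ORC1 rose and ORC6 did not pass the test. ORC1, the largest subunit of the complex, had 13.4 and 11.2 CPM in LGR5-high of pigs 88R and 95R, and 7.16 and 5.89 CPM in LGR5-negative. Both LGR5-high values were above both LGR5-negative values, and the ratios in the pigs were 1.88 and 1.91. Its log2 fold change was 0.92 (standard error 0.185, edgeR adjusted p = 0.0105). ORC6, the smallest subunit, had 7.13 and 6.63 CPM in LGR5-high and 5.83 and 5.39 CPM in LGR5-negative, with a log2 fold change of 0.29 and a 95% interval from -0.14 to 0.73 (edgeR adjusted p = 0.226).

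The genes that load the helicase included the largest increase of the 39. CDC6, the ATPase that recruits the helicase to the origin complex, had 5.12 and 4.15 CPM in LGR5-high and 2.14 and 1.72 CPM in LGR5-negative. The pigs gave ratios of 2.39 and 2.41, and the log2 fold change was 1.26 (standard error 0.258, edgeR adjusted p = 0.0112), with a 95% interval of the fold from 1.54 to 3.74. CDT1, which works with CDC6 in loading, had 11.3 and 11.1 CPM in LGR5-high and 8.74 and 7.35 CPM in LGR5-negative. Its log2 fold change of 0.48 missed the threshold (edgeR adjusted p = 0.0550) and passed it with the replicate block (edgeR adjusted p = 0.0155). GMNN encodes geminin, the inhibitor that binds CDT1 after origins have fired. It had 39.6 and 56.8 CPM in LGR5-high and 35.4 and 44.7 CPM in LGR5-negative, and both values of pig 95R exceeded those of pig 88R, so that the populations overlapped. Within the pigs its ratios were 1.12 and 1.27, and its log2 fold change of 0.27 had an adjusted p of 0.326 in edgeR and of 0.0491 with the replicate block. The ratio of CDT1 counts to GMNN counts, which no scaling between libraries can change, was 0.287 and 0.196 in LGR5-high and 0.247 and 0.164 in LGR5-negative. It was higher in LGR5-high within each pig, while the populations overlapped across the pigs.

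The 6 subunits of the MCM helicase, which form a ring with 1 copy of each, were not all called. MCM3, MCM5, MCM6 and MCM7 rose, while MCM2 and MCM4 did not pass the test. MCM5 had 33.6 and 40.7 CPM in LGR5-high and 22.0 and 23.6 CPM in LGR5-negative, and its log2 fold change was 0.71 (standard error 0.131, edgeR adjusted p = 0.00793). MCM3 had 47.7 and 47.9 CPM against 37.7 and 33.9 CPM, a log2 fold change of 0.42 (edgeR adjusted p = 0.0180). For MCM6 the values were 80.1 and 79.2 CPM against 56.8 and 65.1 CPM, with a log2 fold change of 0.38 (edgeR adjusted p = 0.0221). In each of these 3 genes both LGR5-high libraries were above both LGR5-negative libraries. MCM7 had 141 and 134 CPM in LGR5-high and 108 and 106 CPM in LGR5-negative, with a log2 fold change of 0.36 (standard error 0.0759, edgeR adjusted p = 0.0129).

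MCM2 and MCM4 had nearly the same level in both populations. MCM2 had 67.5 and 68.4 CPM in LGR5-high and 68.9 and 63.2 CPM in LGR5-negative, and the 95% interval of its log2 fold change of 0.040 reached from -0.17 to 0.25 (edgeR adjusted p = 0.733). MCM4 had 54.3 and 51.9 CPM in LGR5-high and 57.0 and 53.8 CPM in LGR5-negative, and the interval around -0.061 reached from -0.28 to 0.16 (edgeR adjusted p = 0.602). As a share of the summed counts of the 6 genes, which no scaling can move, MCM5 made up 7.93% and 9.65% in LGR5-high and 6.26% and 6.82% in LGR5-negative. The share of MCM4 was 12.8% and 12.3% in LGR5-high against 16.3% and 15.6%, and that of MCM2 was 15.9% and 16.2% against 19.6% and 18.3%. Shares of MCM6 overlapped, with 18.9% and 18.8% in LGR5-high and 16.2% and 18.8% in LGR5-negative. The 6 genes together had 424 and 422 CPM in LGR5-high and 351 and 346 CPM in LGR5-negative.

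**Figure D2:**
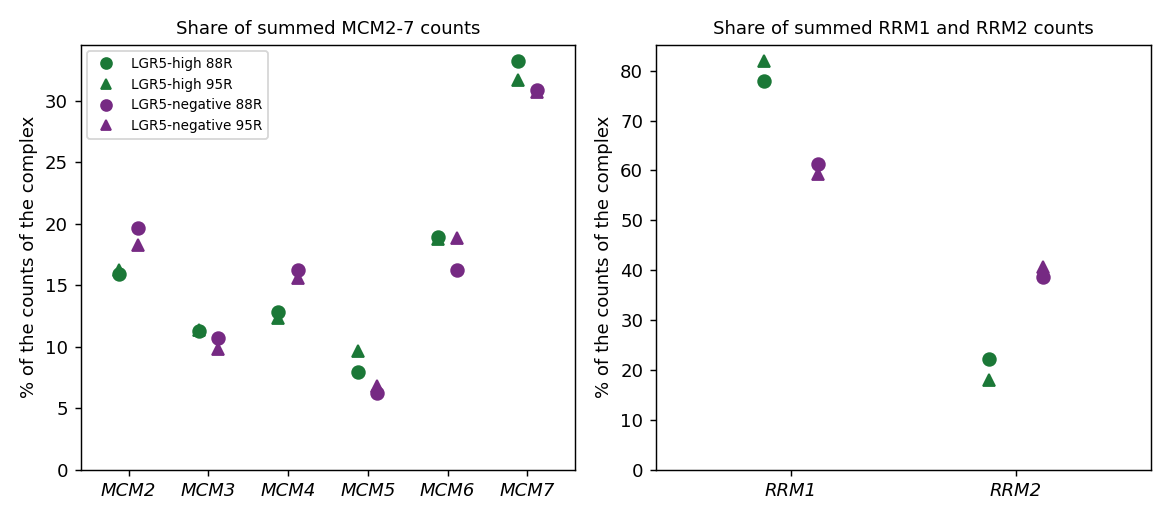
Share of each gene in the summed counts of MCM2 to MCM7 (left) and of RRM1 and RRM2 (right), in percent, for each of the 4 libraries, with colour for the population and shape for the pig. MCM5 takes a larger share and MCM2 and MCM4 smaller shares in LGR5-high, and RRM2 falls from 38.6% and 40.6% in LGR5-negative to 22.1% and 18.0% in LGR5-high.

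Of the genes that activate the helicase, MCM10 rose and the other 4 did not pass the test. MCM10, which is needed to start the assembled helicase, had 17.0 and 14.98 CPM in LGR5-high and 9.65 and 11.5 CPM in LGR5-negative, a log2 fold change of 0.59 (standard error 0.156, edgeR adjusted p = 0.0265). The ratio was larger in pig 88R (1.76) than in pig 95R (1.30), and the counting intervals of these ratios did not overlap. CDC45, the helicase partner that stays with the fork, had 25.3 and 29.7 CPM against 23.9 and 26.8 CPM, and its log2 fold change of 0.12 had an edgeR adjusted p of 0.5002. The GINS genes encode subunits of 1 complex that travels with the helicase. GINS1 had 8.96 and 7.02 CPM in LGR5-high and 5.54 and 5.23 CPM in LGR5-negative, and its log2 fold change of 0.57 was called with the replicate block (edgeR adjusted p = 0.0159) and not without it (edgeR adjusted p = 0.0632). GINS2 had 13.6 and 19.2 CPM in LGR5-high and 14.9 and 20.9 CPM in LGR5-negative. It differed more between the pigs than between the populations. GINS3 had 14.6 and 14.2 CPM against 14.7 and 15.6 CPM, and the log2 fold changes of GINS2 and GINS3 were -0.13 and -0.074.

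The sliding clamp PCNA, a ring that holds polymerases on DNA and a common marker of proliferating cells, did not pass the test without the block. It had 82.8 and 72.5 CPM in LGR5-high and 96.2 and 88.6 CPM in LGR5-negative, with both LGR5-high values below both LGR5-negative values. Its log2 fold change was -0.25, with a 95% interval of the fold from 0.709 to 0.997 (edgeR adjusted p = 0.0893, and 0.0244 with the replicate block). Among the clamp loader subunits RFC3 rose, with 16.8 and 20.04 CPM in LGR5-high against 10.0 and 11.6 CPM in LGR5-negative and a log2 fold change of 0.77 (standard error 0.157, edgeR adjusted p = 0.0111). The other loader subunits stayed under the threshold, with log2 fold changes of 0.20 for RFC2, 0.19 for RFC5 and -0.013 for RFC4. RFC3 took 17.1% and 19.0% of the summed counts of RFC2 to RFC5 in LGR5-high, and 11.8% and 13.2% in LGR5-negative.

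Among the polymerase genes, the catalytic subunits of the leading and lagging strand enzymes rose, and the primase genes did not pass the test. POLE, the catalytic subunit of polymerase epsilon, had 31.9 and 25.4 CPM in LGR5-high and 18.3 and 15.3 CPM in LGR5-negative, a log2 fold change of 0.77 (standard error 0.164, edgeR adjusted p = 0.0128). Its partner subunit POLE2 had 4.68 and 4.93 CPM in LGR5-high and 5.02 and 4.27 CPM in LGR5-negative, with a log2 fold change of 0.051 and a 95% interval from -0.46 to 0.56. POLE gave 6.82 and 5.15 counts for each count of POLE2 in LGR5-high and 3.65 and 3.57 in LGR5-negative, without overlap. POLD1, the catalytic subunit of polymerase delta, had 43.0 and 38.3 CPM in LGR5-high and 32.3 and 31.7 CPM in LGR5-negative, a log2 fold change of 0.34 (edgeR adjusted p = 0.0403), and it was called in none of the 4 fits that left out a library, where its adjusted p reached 0.225. POLA1 and PRIM1, the catalytic subunits of polymerase alpha and primase, both had log2 fold changes of 0.022. Their partners POLA2 and PRIM2 had 0.23 and 0.12. POLA2 had close values in the pigs, with 22.4 ± 0.0409 CPM (SD, n = 2) in LGR5-high and 19.1 ± 0.0701 CPM (SD, n = 2) in LGR5-negative.

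The genes that process and join Okazaki fragments did not pass the test. FEN1, the flap nuclease, had 22.8 and 18.7 CPM in LGR5-high and 19.0 and 14.2 CPM in LGR5-negative. Its log2 fold change of 0.33 had an edgeR adjusted p of 0.205, and 0.0348 with the replicate block. The populations overlapped, with the LGR5-negative value of pig 88R above the LGR5-high value of pig 95R. LIG1, the ligase, had 42.1 and 44.6 CPM in LGR5-high and 46.5 and 49.7 CPM in LGR5-negative, with a log2 fold change of -0.15 (edgeR adjusted p = 0.241).

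Nucleotide supply held the only gene of the 39 that was called lower without the block. RRM2, the small subunit of ribonucleotide reductase and the subunit whose level follows S phase, had 54.5 and 43.7 CPM in LGR5-high of pigs 88R and 95R, and 116 and 125 CPM in LGR5-negative. The ratios in the pigs were 0.468 and 0.349, and the counting intervals of these ratios did not overlap. Its log2 fold change was -1.30 (standard error 0.1247, edgeR adjusted p = 7.49e-04), with a 95% interval of the fold from 0.328 to 0.503, which puts it at the 7.52 percentile of all tested genes. RRM1, the large subunit with which RRM2 forms the enzyme, had 192 and 199 CPM in LGR5-high and 185 and 183 CPM in LGR5-negative, and its log2 fold change of 0.088 had a 95% interval from -0.097 to 0.27. For each count of RRM1 there were 0.284 and 0.219 counts of RRM2 in LGR5-high, and 0.630 and 0.684 in LGR5-negative. This ratio within a library does not depend on scaling, and the populations did not overlap.

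Of the thymidylate genes, 1 of 2 was called. TK1, the thymidine kinase of the salvage route, rose with 29.0 and 25.6 CPM in LGR5-high against 21.5 and 17.0 CPM in LGR5-negative and a log2 fold change of 0.51 (standard error 0.154, edgeR adjusted p = 0.0412). TYMS, thymidylate synthase of the de novo route, had 45.5 and 42.2 CPM in LGR5-high and 52.0 and 51.9 CPM in LGR5-negative. Both LGR5-high values of TYMS were below both LGR5-negative values, and its log2 fold change of -0.24 missed the threshold (edgeR adjusted p = 0.0752, and 0.0505 with the replicate block).

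**Figure D3:**
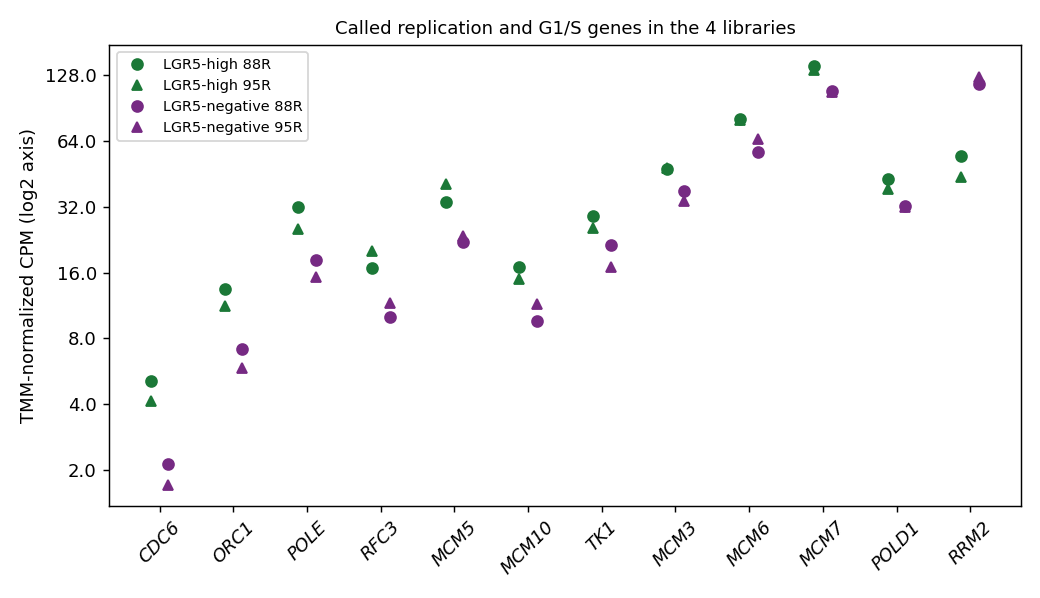
TMM-normalized CPM on a log2 axis of the 12 genes called by edgeR in each of the 4 libraries, in green for LGR5-high and purple for LGR5-negative, ordered from the largest log2 fold change (CDC6, 1.26) to the smallest (RRM2, -1.30). The LGR5-high points lie above the LGR5-negative points in 11 genes and below them in RRM2.

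None of the G1/S regulators passed the test without the block. E2F1, the factor that drives many of these genes, had 21.4 and 20.3 CPM in LGR5-high and 18.4 and 14.1 CPM in LGR5-negative, with a log2 fold change of 0.36 (edgeR adjusted p = 0.119, and 0.0247 with the replicate block). CCNE1 and CCNE2, the E cyclins that activate CDK2 at the G1/S boundary, had log2 fold changes of 0.22 and 0.18, with 95% intervals from -0.24 to 0.68 and from -0.28 to 0.65. The chromatin assembly genes CHAF1A and CHAF1B, which place histones behind the fork, had log2 fold changes of -0.039 and -0.011 and intervals from -0.32 to 0.25 and from -0.34 to 0.32. Of the 27 genes that did not pass, 17 had a 95% interval within 1.5-fold in either direction.

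Scaling between the libraries moved these values together. Over all tested genes the median log2 fold change was 0.015 under TMM, 0.11 with upper quartile scaling and 0.24 with library size only, and that of the 39 genes was 0.20, 0.30 and 0.43. Under each of these scalings the difference between the medians was 0.19, and 29 of the 39 genes lay above the median of all genes. The number of the 39 genes with a log2 fold change above 0 went from 29 to 34 and 36, and 11, 13 and 19 were called higher, beside 22.7%, 26.9% and 34.2% of all tested genes, with RRM2 the only gene lower each time. The strand setting of the counting is not given in the sources used here, and 10 of the 39 genes (ORC1, MCM4, MCM5, MCM7, GINS2, RFC3, RFC4, RFC5, POLE and CCNE2) share part of their span with another gene in RefSeq, so their counts are less certain. The largest of these neighbours, EIF4A2, which overlaps RFC4, had between 17849 and 26878 counts and was lower in LGR5-high, with a log2 fold change of -0.49. GSE1, which overlaps GINS2, and WSB2, which overlaps RFC5, were also lower, with log2 fold changes of -0.40 and -0.55. MARK3, AP4M1 and INTS8, which overlap MCM5, MCM7 and CCNE2, had -0.11, 0.18 and 0.024 and were not called. The counted neighbours of ORC1, MCM4, RFC3 and POLE had at most 16 counts in a library.

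Other replication genes were split in direction. Of 36 tested, which included the remaining ORC, RPA and polymerase subunits, 9 were higher and 6 lower, with a median log2 fold change of 0.20. With library size only 18 were higher and 2 lower. Of all tested genes 22.7% were higher and 22.0% lower in the main test, and 34.2% and 14.6% with library size only. The log2 fold changes of the 36 genes reached from -0.75 to 1.30. TICRR, which helps CDC45 onto the helicase, had the largest change at 1.30 (edgeR adjusted p = 0.0101), with 15.7 and 10.7 CPM in LGR5-high and 6.18 and 4.57 CPM in LGR5-negative. DNA2, a nuclease of Okazaki fragments, and POLD2, a subunit of polymerase delta, followed with 0.88 and 0.76. The 6 lower genes were MCM9 at -0.75, POLE3 at -0.63, CLSPN at -0.53, and DONSON, MCMBP and DBF4 at -0.48 each. The other G1/S genes had a median of 0.0073, with 7 of 26 higher and 3 lower, against 9 and 0 with upper quartile scaling and 11 and 0 with library size only. The largest changes were in EXO1, a DNA repair exonuclease, at 1.62, and UHRF1, which links DNA methylation to replication, at 1.26. The histone chaperone ASF1B followed at 1.06, and E2F3 was also higher, at 0.93. The 3 lower genes of the main test were E2F2 at -0.51, the lowest of the 26, SLBP at -0.44 and CDK2 at -0.37.

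In other nucleotide supply genes, 2 of 12 were higher and 4 lower, against 7 and 1 with library size only. SHMT1, an enzyme of folate metabolism, had 65.5 and 53.3 CPM in LGR5-high and 29.9 and 20.9 CPM in LGR5-negative, a log2 fold change of 1.23 (edgeR adjusted p = 0.00470). DCTPP1, a pyrophosphatase of dCTP, had 1.17. DCK, deoxycytidine kinase of the salvage route, fell by 1.06 on the log2 scale (edgeR adjusted p = 8.39e-04), with 31.2 and 27.2 CPM in LGR5-high and 61.2 and 60.5 CPM in LGR5-negative. RRM2B, the alternative small subunit of ribonucleotide reductase, was looked up after the values of RRM2 had been seen. It was also lower, with 8.03 and 9.26 CPM in LGR5-high against 13.2 and 13.2 CPM in LGR5-negative and a log2 fold change of -0.61 (edgeR adjusted p = 0.0202).

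**Figure D4:**
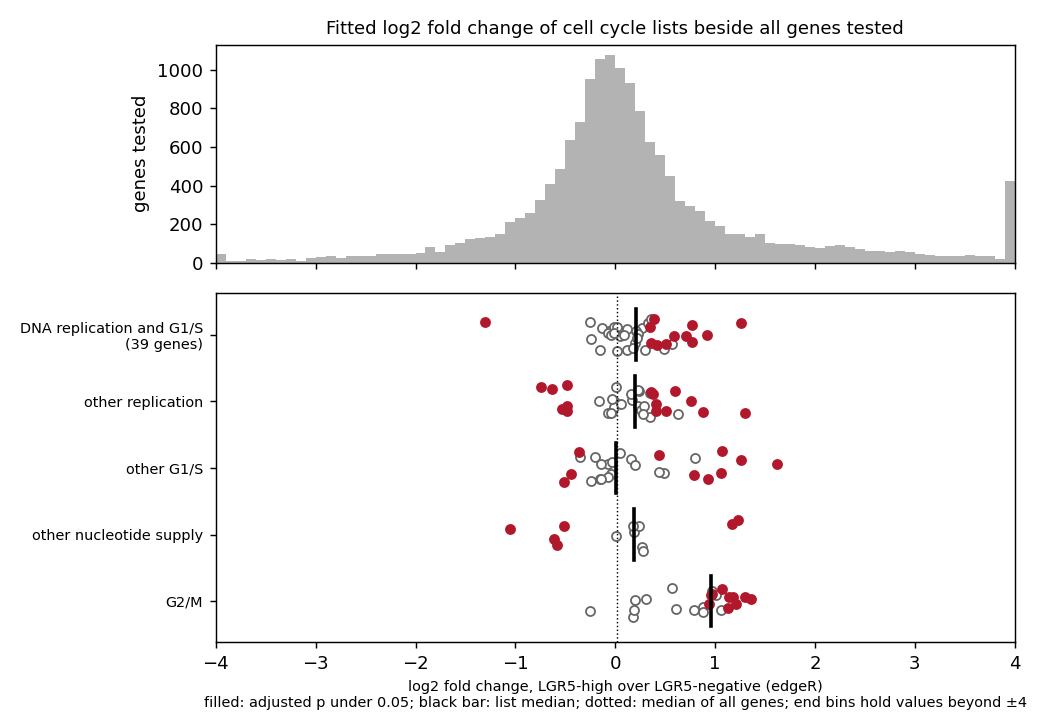
Histogram of the fitted log2 fold change of the 15980 tested genes (top) and the values of single genes in 5 cell cycle lists (bottom), filled where the edgeR adjusted p-value was under 0.05, with a black bar at each list's median. The 39 replication and G1/S genes centre on 0.20 with RRM2 apart at -1.30, and the 23 G2/M genes centre on 0.96.

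Genes of G2 and mitosis had a median log2 fold change of 0.96, beside 0.20 for the replication and G1/S genes, and the difference was not tested. Of 23 G2/M genes, 10 were higher and 22 had a log2 fold change above 0, and the exception, TTK at -0.26, was looked up after its value had been seen. With the replicate block 19 were higher, beside 28.5% of all tested genes, against 10 and 22.7% without it. The summed level of the 23 genes was 1141 CPM in LGR5-high of pig 88R against 682 CPM in its LGR5-negative cells, and 824 against 429 CPM in pig 95R. It was thus higher in pig 88R than in pig 95R for each population. The size of the G2/M difference depended on the libraries. Without the LGR5-high library of pig 88R the median log2 fold change of the G2/M genes was 0.70. Without the LGR5-negative library of the same pig it was 1.44. For pig 95R it was 1.11 without the LGR5-high library and 0.56 without the LGR5-negative library. MKI67, the gene of the Ki-67 proliferation antigen, had 190 and 135 CPM in LGR5-high and 105 and 51.5 CPM in LGR5-negative, and its log2 fold change of 1.06 had an edgeR adjusted p of 0.0504, and 1.61e-07 with the replicate block. CCNB2, a mitotic cyclin, CENPF, a kinetochore protein, and AURKB, a mitotic kinase, had the largest changes among the called genes, at 1.36, 1.30 and 1.20. For each count of MKI67 there were 0.287 and 0.324 counts of RRM2 in LGR5-high, and 1.11 and 2.44 in LGR5-negative.

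**Figure D5:**
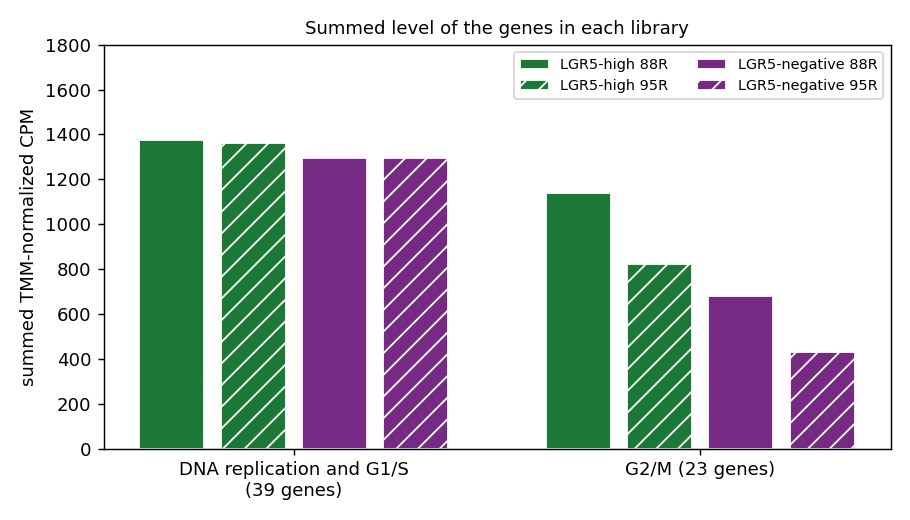
Summed TMM-normalized CPM of the 39 replication and G1/S genes and of the 23 G2/M genes in each library, in green for LGR5-high and purple for LGR5-negative, with hatching for pig 95R. The replication sums lie between 1293 and 1376 CPM in all 4 libraries and include RRM2, which was lower in LGR5-high. The G2/M sums range from 429 to 1141 CPM and are higher in LGR5-high within each pig.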

How the data were processed

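RNA from sorted LGR5-high and LGR5-negative cells of pigs 88R and 95R was poly(A)-selected and sequenced from both fragment ends. What the authors deposited is 1 table of gene counts, whole numbers and not normalized. The submitters' processing notes name Trimmomatic 0.36, STAR 2.5.2b and featureCounts of Subread 1.5.2, and the genome build, annotation and strand setting are not given in the sources used here. An entry without a name, between 0.360% and 0.626% of the counts, was left out. All 4 columns of counts were used, and 3 counts corresponded to between 0.0873 and 0.105 CPM.

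The populations were tested with edgeR 4.0.16 under R 4.3.3 (filterByExpr with a minimum count of 10 and minimum total of 15, TMM, quasi-likelihood test on the population, 2-sided, Benjamini-Hochberg over all tested genes, threshold 0.05). Intervals of 95% used the standard error, taken from the log2 fold change and the F statistic. Ratios within a pig have exact conditional binomial intervals. The ratios within a pig and the replicate block paired the libraries by the animal number in the labels. The main test held no term for the pig and treated all libraries as independent. The libraries of a pig deviated together from the means of their populations (correlation 0.370 across genes). Alternatives were 3 other scalings, 2 other filters, the replicate block, DESeq2 1.42.0 with and without it, limma-voom (limma 3.58.1), Student's t-test on log2(CPM + 1), and leaving out each library, where the lone library of a population is assumed to vary like the others. Scripts were tested on simulated data, in which the t-test called no gene. Genes, lists and tests were chosen with earlier results of these data known. Genes named by rule are the 39 genes, the 3 called genes with the largest change in each other cell cycle list, MKI67, and LGR5, SOX9 and KRT10 as checks of the sort. Single T cell and fibroblast markers and overlapping neighbours were also named. RRM2B, TTK, E2F3 and the lower genes of the other replication and other G1/S lists were named after their values had been seen. Gene names and neighbours come from RefSeq (Sscrofa11.1), in which all 39 genes matched. Plots were drawn with matplotlib 3.10.9.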

Additional observations from a re-analysis of the deposited data

How the results depend on the processing

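The number of replication and G1/S genes called higher was 11 in the main test, 19 with library size only and 1 with Student's t-test. It stood beside 22.7%, 34.2% and 3.40% of all tested genes, in the same order. It was 9 to 16 under the other settings that kept all libraries, beside 15.3% to 28.5% of all tested genes. It lay between 2 and 9 when a library was left out. RRM2 was called lower in all settings except the t-test, which called 0, and the replicate block called 2 genes lower. The t-test had 7 of the 39 genes higher and 2 lower at an unadjusted p under 0.05. The replicate block in edgeR changed no call of the 39 genes other than the 6 gained calls named above, which DESeq2 with the replicate block did not make. The latter also lost MCM10 (adjusted p = 0.0534) and POLD1 (adjusted p = 0.105). Scaling moves all genes by construction, and for the other settings the cause was not tested.

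The median log2 fold change of the 39 genes, 0.20 in the main test, was 0.30 with upper quartile scaling, 0.43 with library size only, 0.24 with at least 10 counts in every library, 0.19 on the log2(CPM + 1) scale, and between 0.15 and 0.23 without a library. Other replication genes higher numbered 18 with library size only, 5 among all genes with at least 1 count, 0 with the t-test (7 at an unadjusted p under 0.05), and between 2 and 6 without a library. Other G1/S genes higher numbered 11 with library size only, 0 with the t-test (5 unadjusted), and between 2 and 8 without a library. Other nucleotide supply genes higher numbered 4 with upper quartile scaling, 7 with library size only, 0 with the t-test (1 unadjusted), and 1 to 2 without a library. G2/M genes higher numbered 17 with library size only, 19 with the replicate block, 18 with DESeq2 and the block, 0 with the t-test (0 unadjusted), and 0 to 18 without a library.

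Sign changes occurred in genes that were not called. With upper quartile scaling, the log2 fold change became 0.034 for MCM4, 0.021 for GINS3, 0.081 for RFC4, 0.055 for CHAF1A and 0.084 for CHAF1B. With library size only it became 0.16 for MCM4, 0.093 for GINS2, 0.15 for GINS3, 0.21 for RFC4, 0.073 for LIG1, 0.18 for CHAF1A and 0.21 for CHAF1B. With at least 10 counts in every library it became 0.017 for RFC4 and 0.020 for CHAF1B. Without a library it ranged from -0.39 to 0.13 for GINS2, -0.052 to 0.091 for POLA1, -0.087 to 0.35 for PRIM2, -0.038 to 0.0012 for CHAF1B, -0.011 to 0.50 for GMNN, -0.091 to 0.052 for RFC4, -0.10 to 0.13 for PRIM1, -0.13 to 0.043 for CHAF1A, -0.030 to 0.096 for MCM2 and -0.071 to 0.16 for POLE2.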
